A study of Mus musculus with 2 samples.

Results

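Transcripts of 7 genes of the vascular endothelial growth factor (VEGF) system were followed through the stromal cells of the mouse gut. These were the ligands Vegfa and Vegfc, the receptor tyrosine kinases Flt1 (VEGFR1), Kdr (VEGFR2) and Flt4 (VEGFR3), and the co-receptors neuropilin 1 (Nrp1) and neuropilin 2 (Nrp2). They were chosen by name, and all 7 were listed among the 16381 genes of the colon table and the 18262 genes of the small intestinal table. Live cells of the stroma were sorted after removal of the epithelium, with CD45 and CD326 (EpCAM) used to leave out immune and epithelial cells, and were sequenced by the 10x Genomics 3' droplet method. There was 1 library per tissue, from healthy, untreated mice. The colon was digested for 60 minutes and the small intestine for 45 minutes, both with collagenase XI and dispase, and about 16000 cells were loaded for each. On the mouse genome mm10 (GENCODE M21 annotation) the genes span chr17:46016993-46032369 (Vegfa), chr8:54077606-54187096 (Vegfc), chr5:147561604-147726011 (Flt1), chr5:75932827-75978458 (Kdr), chr11:49609263-49652739 (Flt4), chr8:128358604-128503363 (Nrp1) and chr1:62703285-62818695 (Nrp2). The labels give no strain, age, sex or number of animals, so tissue, digestion time, animals and library cannot be told apart, and no p-value can be given for any difference.

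VEGF-A is the main growth factor of blood vessels: it binds VEGFR1, which takes up ligand and signals weakly, and VEGFR2, which carries most of the growth signal in endothelial cells. VEGF-C acts mainly through VEGFR3 on lymphatic vessels and, once cut to its mature form, through VEGFR2 as well. Neuropilins bind VEGFs and class 3 semaphorins and present them to the signalling receptors, with neuropilin 1 best known in arteries and capillaries and neuropilin 2 in veins and lymphatics. In the gut, capillaries below the epithelium stay fenestrated, and the lacteals that take up fat stay lymphatic, under continuous VEGF signalling.

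The colon library held 6018 cells with a median of 6598 UMIs (unique molecular identifiers, each marking 1 captured RNA molecule), and the small intestinal library held 9359 cells with a median of 5943. The authors' labels gave 6 types that held 50 cells or more in both libraries. These were CD81- FBs (fibroblasts; 3631 colon and 2823 small intestinal cells), CD81+ Trophocytes (875 and 1913), PDGFRa-hi SEMFs (1105 and 1109), SMCs (smooth muscle; 125 and 468), LECs (lymphatic endothelium; 217 and 2498) and BECs (blood endothelium; 53 and 524). The meanings in brackets are read from the markers, since the files do not spell the names out. Each label's own marker genes had their highest sum in that label, except that the CD81- FB markers summed to 9620 CPM (UMIs of a gene per 1000000 UMIs of the type) in small intestinal SMCs and 9126 CPM in CD81- FBs. Epithelial markers summed to at most 5.02 CPM in any type, and the 6 lymphatic markers summed to 48.2 CPM in colon BECs, where Pdpn held 37.1 CPM, Prox1 had 1 UMI and Lyve1, Mmrn1 and Reln had 0. The libraries shared 21 cell barcodes. A Y-linked UMI was found in 31.7% of cells in the colon library against 73.7% in the other. In the colon 1751 cells had UMIs of Y-linked genes without Xist (Y-only cells below), and 2700 had Xist alone.

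Levels are given as CPM with exact Poisson 95% intervals, and shares of cells with at least 1 UMI carry Clopper-Pearson 95% intervals. Both cover counting error only.

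Transcripts of the 3 receptors lay mostly in the endothelium. The promoters of Flt1, which BECs held nearly alone among endothelial cells, and Kdr, which both vessel classes held, are shown as the pair that the results contrast. The windows run 5' to 3' toward the start of the gene on the minus strand of chromosome 5 (RefSeq sequence, build GRCm38.p6), at chr5:147726012-147726261 for Flt1 and chr5:75978459-75978705 for Kdr. Capitals mark the letters GGAA or, on the other strand, TTCC, the core that ETS factors of endothelial cells bind.
Flt1: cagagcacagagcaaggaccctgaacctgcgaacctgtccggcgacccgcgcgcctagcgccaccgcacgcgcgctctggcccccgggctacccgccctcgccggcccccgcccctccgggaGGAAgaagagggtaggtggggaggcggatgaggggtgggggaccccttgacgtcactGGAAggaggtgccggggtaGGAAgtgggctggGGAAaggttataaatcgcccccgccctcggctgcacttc
Kdr: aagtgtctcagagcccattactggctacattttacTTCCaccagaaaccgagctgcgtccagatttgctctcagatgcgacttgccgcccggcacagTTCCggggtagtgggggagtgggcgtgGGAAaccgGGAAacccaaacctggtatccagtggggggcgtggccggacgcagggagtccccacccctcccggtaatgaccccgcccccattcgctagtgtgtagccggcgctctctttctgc
The Flt1 window held 4 matches, all as GGAA, and the Kdr window held 4, of which 2 were GGAA and 2 TTCC. At least 1 match was present in 93.4% of 32851 promoter windows of 250 bases and at least 4 in 33.4%, with a median of 3, so the count describes these windows without setting them apart.

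**Figure D1:**
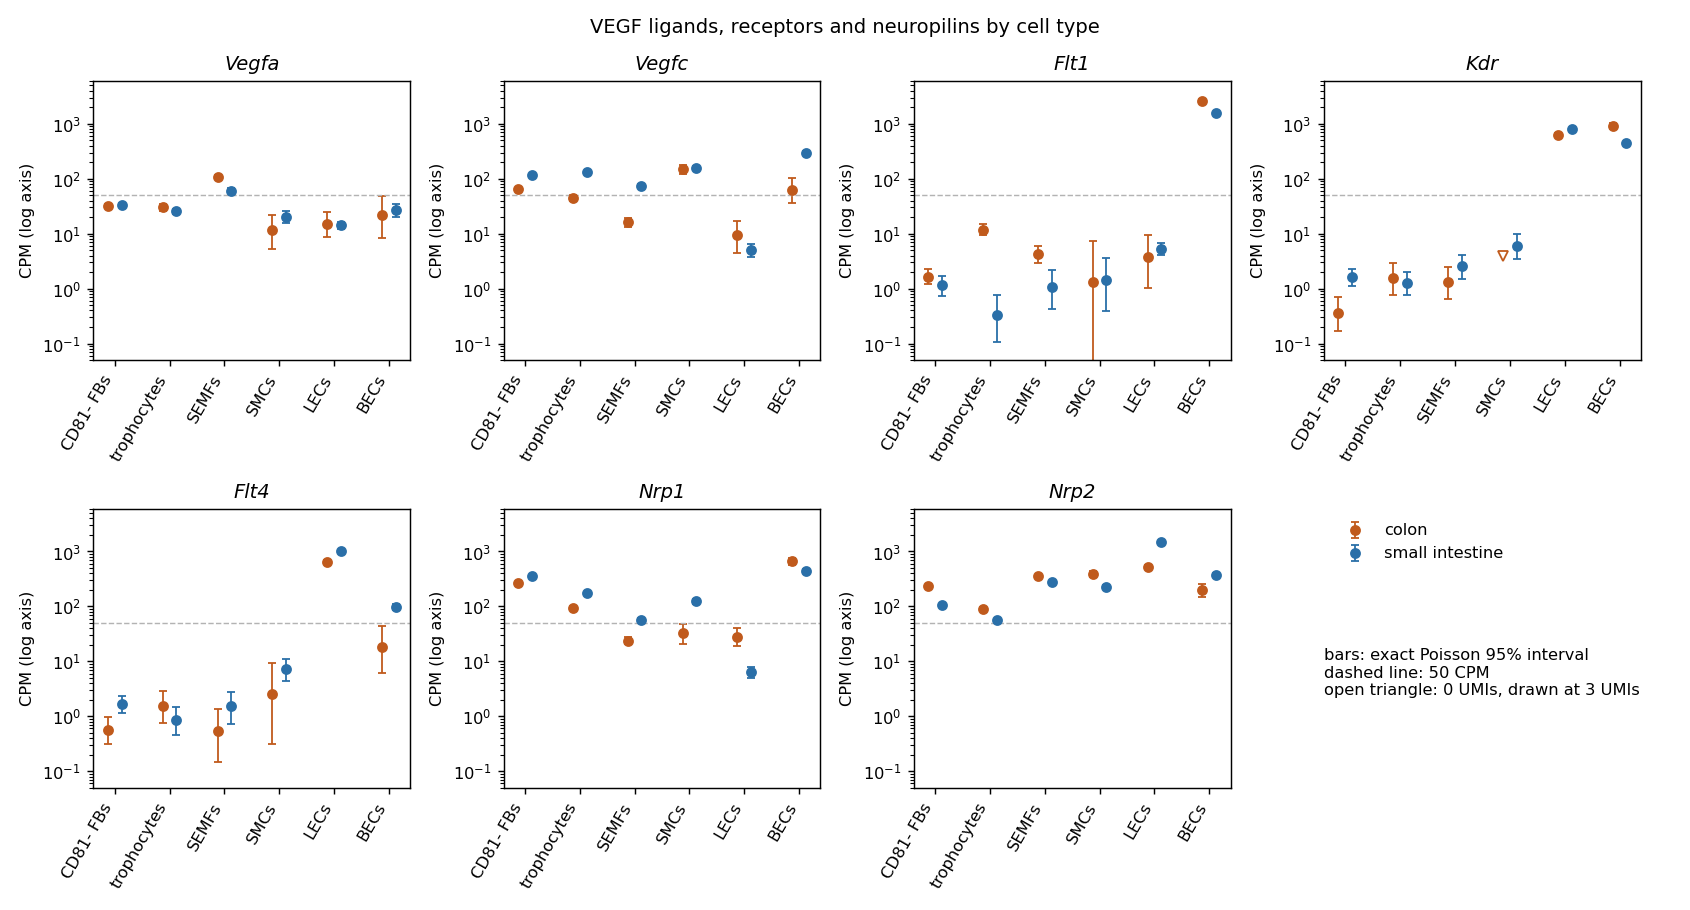
Level of each of the 7 genes in the 6 cell types of colon and small intestine, in CPM on a log axis with exact Poisson 95% intervals (counting error only), a dashed line at 50 CPM and an open triangle at 3 UMIs for a count of 0. Vegfa was highest in PDGFRa-hi SEMFs and Flt1 in BECs of both tissues, Flt4 and Nrp2 were highest in LECs of both, and Vegfc and Kdr had a different leading type in each tissue.

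Vegfa, the ligand of blood vessel growth, was highest in PDGFRa-hi SEMFs, the PDGFRa-high cells known to lie against the epithelium. Their level reached 108 CPM (95% interval 101 to 116) for the colon against 60.4 CPM (54.6 to 66.7) for the small intestine, with a UMI in 37.6% and 26.0% of cells. The CD81- FBs followed at 32.0 CPM (29.8 to 34.3) and 33.3 CPM (30.9 to 36.0), so the SEMFs stood 3.37-fold and 1.81-fold above them. Below the SEMFs each type's interval overlapped that of its neighbour in the order, down to 11.7 CPM in colon SMCs and 14.2 CPM in small intestinal LECs. LECs had a Vegfa UMI in 5.53% and 5.76% of cells, the lowest share in the small intestine and close to the lowest, 4.80% of SMCs, in the colon. At the ratio of fibroblast markers, fibroblast RNA would bring 16.3 CPM of Vegfa to colon SMCs, above the 11.7 CPM measured, and 15.7 CPM to small intestinal SMCs, where 20.3 CPM was measured. LECs of the colon held 15.0 CPM against an estimate of 4.73 CPM, and those of the small intestine 14.2 CPM against 0.886 CPM. The part of fibroblast RNA in these low SMC and LEC values was not tested. With cells thinned to 2000 UMIs, the share of SEMFs with a Vegfa UMI was 16.1% in the colon and 10.6% in the small intestine, the highest of the 6 types in both. Most positive SEMFs held a single Vegfa UMI (54.7% of them in the colon, 74.3% in the small intestine), so the level in single cells was not resolved.

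Vegfc, the lymphatic ligand, was led by different cells in the tissues. In the colon the highest level was in SMCs, at 148 CPM (122 to 177), with a UMI in 54.4% of cells. CD81- FBs (63.7 CPM, 60.6 to 66.9), BECs (63.0 CPM, 36.7 to 101) and trophocytes (44.3 CPM, 39.3 to 49.8) came next with overlapping neighbours, and the BEC value rested on 17 UMIs in 8 cells. Colon SEMFs, the leading source of Vegfa, were low in Vegfc at 16.0 CPM (13.3 to 19.2).

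In the small intestine BECs led at 290.1 CPM (268 to 314), with a UMI in 46.8% of cells. SMCs followed at 158 CPM (144 to 174), trophocytes at 132 CPM (126 to 138), CD81- FBs at 117 CPM (112 to 121) and SEMFs at 74.8 CPM (68.3 to 81.8). Of these neighbours in the order none overlapped. LECs, the cells that carry most of its receptor, had the lowest Vegfc level in both tissues, at 9.39 CPM (colon) and 5.00 CPM (small intestine).

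Flt1, the receptor that holds VEGF-A near the endothelial surface, was a blood endothelial transcript in both tissues. BECs held 2599.5 CPM (2411 to 2799) in the colon against 1579 CPM (1527 to 1633) in the small intestine, with a UMI in 88.7% and 92.2% of cells. CD81- FBs, which should lack it, had 1.66 and 1.14 CPM and a UMI in 0.468% and 0.496% of cells. Their median depth of 6697 and 6977 UMIs was above the 3821 and 3651.5 of BECs, so depth did not favour the BECs. LECs held only 3.75 and 5.26 CPM. BECs were 0.881% of colon cells and held 81.6% of all colon Flt1 UMIs, and were 5.60% of small intestinal cells and held 97.2%. Of the other colon Flt1 UMIs, trophocytes held 8.73%, CD81- FBs 4.77% and SEMFs 3.73%.

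Kdr, the main signalling receptor, was shared between blood and lymphatic endothelium, in opposite order in the tissues over all BECs. In the colon it stood at 919.7 CPM (809 to 1042) in BECs and 624 CPM (578 to 673) in LECs. In the small intestine it stood at 441 CPM (413 to 469) in BECs and 815 CPM (799 to 832) in LECs. On the log2 scale BECs over LECs was 0.56 (0.34 to 0.77) in the colon and -0.89 (-0.98 to -0.79) in the small intestine. The unthinned share of cells with a UMI did not follow the colon order: it was 81.1% in BECs and 91.2% in LECs, whose median depth was 4545 UMIs. At 4000 UMIs per cell the share was 62.5% of 23 BECs and 87.5% of 152 LECs. At 2000 UMIs per cell the order turned, with 71.8% of 50 BECs and 67.8% of 217 LECs. No order is therefore read from the colon shares. CD81- FBs held 0.364 and 1.64 CPM with a UMI in 0.220% and 0.886% of cells. No UMI was found in 125 colon SMCs, where the upper end of the 95% interval was 4.78 CPM. Because LECs far outnumbered BECs, they held 70.2% of colon and 89.3% of small intestinal Kdr UMIs.

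Flt4, the receptor of VEGF-C, marked the LECs, at 653 CPM (606 to 704) in the colon against 1026 CPM (1007 to 1045) in the small intestine. A UMI was found in 91.2% and 95.6% of LECs, against 0.358% and 0.956% of CD81- FBs. LECs held 95.1% and 96.9% of all Flt4 UMIs. BECs held 18.5 CPM in the colon, from only 5 UMIs, against 97.2 CPM (84.6 to 111) in the small intestine, with a UMI in 15.8% of cells. The small intestinal value lay mostly in few cells: 33 of 524 BECs had UMIs of at least 2 of 6 lymphatic markers and held 151 of the 213 Flt4 UMIs, at 514 CPM. The other 491 BECs had 32.7 CPM (25.0 to 41.9). No colon BEC had 2 or more of these markers, and the part of such cells in the small intestinal level beyond this split was not tested.

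Nrp1 was carried by blood endothelium and by fibroblasts. BECs held 664 CPM (570 to 768) in the colon against 443 CPM (416 to 472) in the small intestine. CD81- FBs held 269 CPM (262 to 275) and 354 CPM (346 to 362), and trophocytes 94.5 and 178 CPM. A UMI was found in 75.5% and 65.6% of BECs and in 75.2% and 81.1% of the deeper CD81- FBs, so the shares do not follow the CPM in the small intestine, and at 2000 UMIs per cell they were 45.3% of BECs and 46.3% of CD81- FBs there. SEMFs, with 23.8 and 56.4 CPM, and LECs, with 28.2 and 6.33 CPM, were low in both tissues.

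Nrp2 had its highest level in LECs and was present in every type. LECs held 527 CPM (484 to 572) in the colon against 1499 CPM (1477 to 1522) in the small intestine, with a UMI in 83.9% and 93.4% of cells. In the colon SMCs followed at 386 CPM (343 to 432), SEMFs at 354 CPM (341 to 368), CD81- FBs at 234 CPM (228 to 241), BECs at 197 CPM (147 to 257) and trophocytes at 88.9 CPM (81.7 to 96.5). The intervals of SMCs and SEMFs overlapped, as did those of CD81- FBs and BECs. In the small intestine BECs came second at 379 CPM (353 to 405), before SEMFs at 273 CPM and SMCs at 226 CPM, with CD81- FBs at 105 CPM and trophocytes at 56.2 CPM. In both tissues BECs and CD81- FBs thus had more Nrp1 than Nrp2, and LECs and SEMFs more Nrp2 than Nrp1. The 2 levels were close in colon CD81- FBs (269 CPM of Nrp1 and 234 CPM of Nrp2). They were also close in small intestinal BECs (443 and 379 CPM).

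A type was counted as carrying a transcript at 50 CPM or more, with a share of positive cells above that of the lowest type. By that count Vegfa was carried by 1 of 6 types in each tissue, the SEMFs, while its receptor Flt1 was carried by 1, the BECs, and Kdr by 2, the BECs and LECs. Vegfc was carried by 3 types in the colon and 5 in the small intestine, where only LECs fell below. Its receptor Flt4 was carried by LECs alone in the colon and by LECs and BECs in the small intestine, where the BECs fall below the minimum, at 32.7 CPM, without the 33 cells that had 2 or more lymphatic markers. No type taken as a whole carried both Vegfa and any of the 3 receptors. Within the small intestinal BECs, the 131 cells with at least 2 arterial markers, described below, held 75.4 CPM of Vegfa. The same cells held 1755 CPM of Flt1 and 488 CPM of Kdr. BECs were the only type that carried Vegfc together with receptors, with Kdr and Flt1 in both tissues. In the colon this rested on 17 Vegfc UMIs in 8 cells, at 63.0 CPM (36.7 to 101), an interval that included the minimum of 50 CPM. For 5 of the 7 genes 1 type led in both tissues, the exceptions being Vegfc and Kdr.

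Counted over the sampled cells, the sources looked different from the levels, since abundant types weigh more. SEMFs held 44.05% of Vegfa UMIs in the colon, where they were 18.4% of cells, and 22.7% in the small intestine, where they were 11.8%. CD81- FBs held 43.4% and 38.7% of Vegfa UMIs at an unremarkable level. They also held 74.3% of colon Vegfc UMIs, while SMCs, with the highest colon level, held 5.38%. In the small intestine Vegfc UMIs were spread over CD81- FBs (39.4%), trophocytes (33.3%) and BECs (10.7%). For Nrp2 the largest holder was the CD81- FBs in the colon (58.4%) and the LECs in the small intestine (72.6%). These shares follow the sorted and captured cells, not the tissue.

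**Figure D2:**
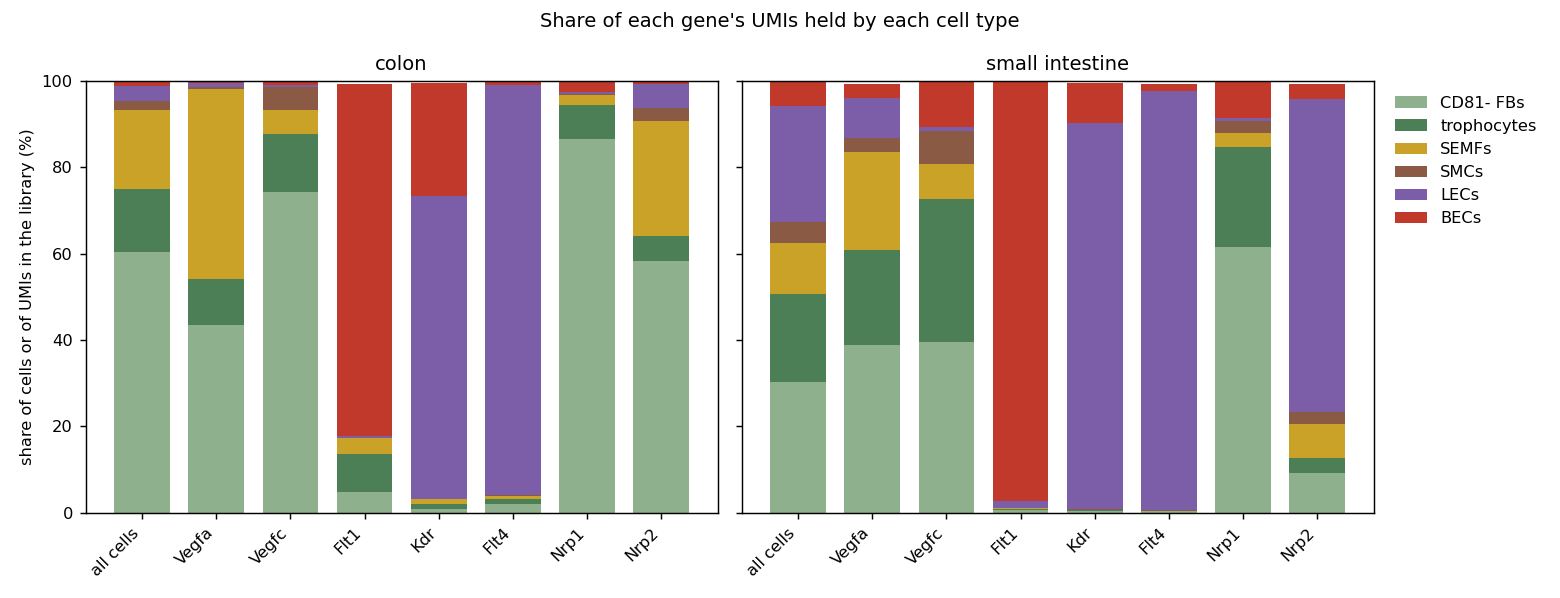
Share of all UMIs of each gene held by each of the 6 cell types, in percent of the UMIs of that gene in the library, for colon and small intestine, with the share of all cells as the first bar. BECs hold 81.6% and 97.2% of Flt1 and LECs hold 95.1% and 96.9% of Flt4, while Vegfa, Vegfc and Nrp1 lie mostly in the fibroblast types and Nrp2 does so only in the colon.

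Receptors were read together in single endothelial cells. Flt1 and Kdr UMIs occurred together in 43 of 53 colon BECs (81.1%) and in 298 of 524 small intestinal BECs (56.9%), where another 185 cells had Flt1 and no Kdr UMI. Kdr and Flt4 occurred together in 183 of 217 colon LECs (84.3%) and 2202 of 2498 small intestinal LECs (88.2%). Flt4 and its co-receptor Nrp2 shared 77.9% and 90.03% of LECs, and Flt1 and Nrp1 shared 67.9% and 63.0% of BECs. Both neuropilins were found in 51.1% of colon and 38.2% of small intestinal CD81- FBs. Kdr and Nrp1 shared 62.3% of colon BECs and 44.7% of small intestinal BECs, so in both tissues fewer BECs had UMIs of both than of Flt1 with either.

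The colon was set against the small intestine within each type, as log2 of the CPM ratio with an exact conditional 95% interval. A gene counted as higher or lower when the ratio was at least 2-fold, the interval excluded 0 and the 2 groups held at least 20 UMIs together. The median ratio over all genes tested lay between -0.31 in SEMFs and -0.09 in trophocytes, so a ratio near these values is that of the typical gene.

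In BECs 1 of the 7 genes was higher (Kdr) and 2 were lower (Vegfc, Flt4) in the colon, where 5.25% of 9212 genes were higher and 10.6% lower. In LECs 1 was higher (Nrp1) and 1 lower (Nrp2), beside 5.69% and 11.7% of all genes. In SEMFs 1 of 6 tested was higher (Flt1) and 2 were lower (Vegfc, Nrp1), beside 7.86% and 16.1%. In trophocytes 1 of 7 was higher (Flt1) and 1 lower (Vegfc), beside 7.65% and 8.86%. In CD81- FBs 1 of 7 was higher (Nrp2) and 2 were lower (Kdr and Flt4, both under 2 CPM in either tissue), beside 9.31% and 11.7%. LECs, which hold most transcripts of these 2 receptors, were 3.61% of colon and 26.7% of small intestinal cells, and their part in the CD81- FB values was not tested. In SMCs 0 of 5 were higher and 1 was lower (Nrp1), beside 4.52% and 16.4%. Over the 3 fibroblast types pooled, 2 of 7 were higher (Flt1, Nrp2) and 2 lower (Vegfc, Kdr), beside 9.42% and 9.97%. With so few genes, 1 or 2 per type do not set the group apart from all genes.

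**Figure D3:**
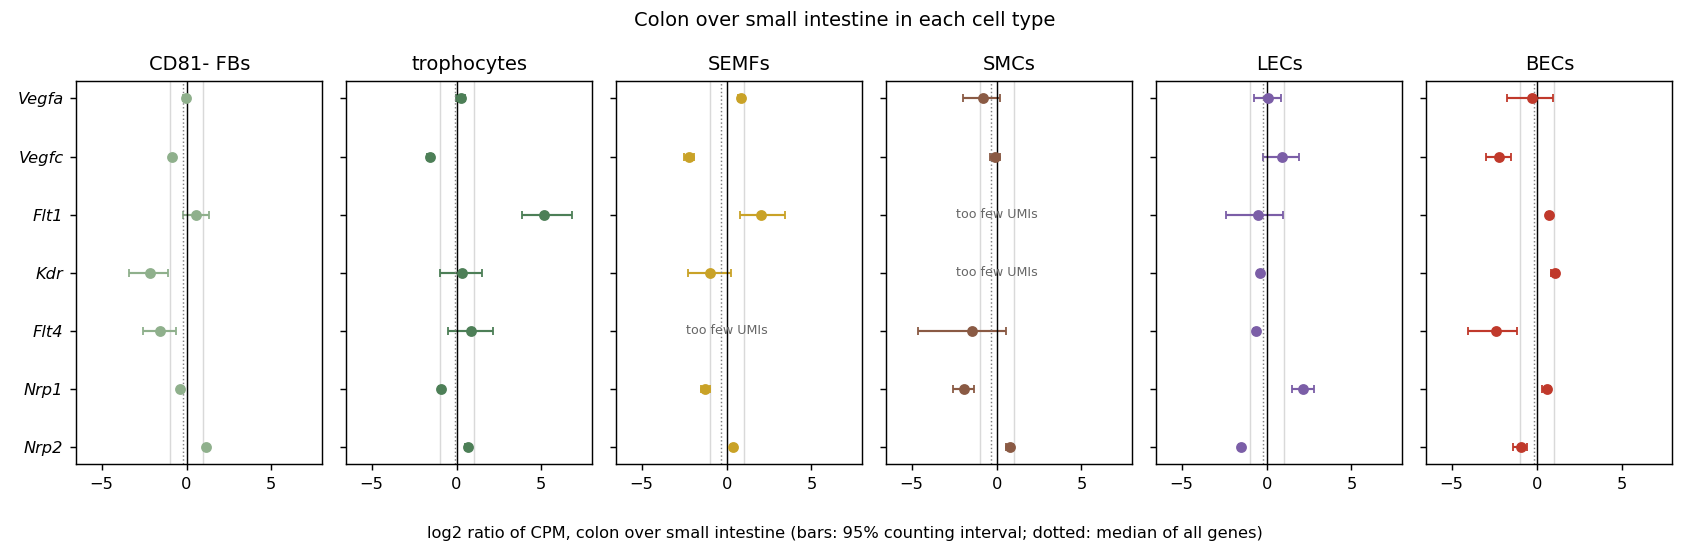
Log2 ratio of colon to small intestine for each gene in each cell type, with exact conditional 95% intervals (counting error only) the median of all genes tested as a dotted line and 2-fold as light lines. Vegfc is lower in the colon in BECs (-2.20), SEMFs (-2.23) and trophocytes (-1.58) but not in SMCs (-0.10, or 0.20 relative to the median gene). Nrp2 is higher in CD81- FBs (1.16) and lower in LECs (-1.51).

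Vegfc was lower in the colon by at least 2-fold in 3 of the 6 types, the most of any of the 7 genes. SEMFs held 16.0 CPM of it in the colon against 74.8 CPM in the small intestine, which gave -2.23 (-2.53 to -1.93). In BECs the ratio was -2.20 (-2.99 to -1.51), in trophocytes -1.58 (-1.76 to -1.39) and in CD81- FBs -0.87 (-0.97 to -0.78). SMCs differed from these types: 148 CPM of the colon against 158 CPM of the small intestine gave -0.10 (-0.41 to 0.20), or 0.20 relative to the median gene. CD81- FB markers summed to 19.7% of their CD81- FB level in colon SMCs and 105% in small intestinal SMCs, and at those ratios CD81- FB RNA would bring 12.5 and 123 CPM of Vegfc; its part was not tested. Colon CD81- FBs had 75.04 CPM among Y-only cells and 53.1 CPM among those with Xist alone, and both values were below the 117 CPM of the small intestine.

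Vegfa differed in the SEMFs, where the same 108 and 60.4 CPM gave 0.84 (0.66 to 1.02), short of 2-fold, or 1.15 relative to the median gene, past it. In CD81- FBs, with 32.0 and 33.3 CPM, the ratio was -0.06 (-0.21 to 0.09), or 0.14 relative to the median gene. Colon CD81- FBs held 25.9 CPM among Y-only cells and 37.7 CPM among those with Xist alone, on either side of the small intestinal level. Low-oxygen and dissociation genes were read in the same cells. In SEMFs 3 of 10 genes of the glycolysis and low-oxygen list were higher in the colon and 0 lower (Slc2a1, the glucose transporter, Egln3 and Adm), and 8 of 9 dissociation-response genes, among them Fos and Jun, were higher, with a median log2 ratio of 1.86. Over all genes in SEMFs 7.86% were higher and 16.1% lower. In CD81- FBs 2 of 10 (Slc2a1, Adm) and 1 of 9 (Hspa1a) were higher and none lower, beside 9.31% and 11.7% of all genes. The part of either set in the Vegfa difference was not tested.

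Nrp2 differed in opposite directions. In CD81- FBs it was 234 CPM in the colon against 105 CPM, 1.16 (1.09 to 1.23), and in SMCs it was 386 and 226 CPM, 0.77 (0.57 to 0.97). In LECs it was 527 and 1499 CPM, -1.51 (-1.63 to -1.39), and in BECs 197 and 379 CPM, -0.95 (-1.37 to -0.54). The BEC ratio was -0.04 (-0.74 to 0.59) with only the Y-only colon cells, 11 cells and 21 UMIs. At the ratio of CD81- FB markers, CD81- FB RNA would bring 46.2 CPM of Nrp2 to colon and 110.5 CPM to small intestinal SMCs. Its part in the SMC ratio was not tested. Stromal types thus had the higher level in the colon and endothelial types in the small intestine.

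Nrp1 was lower in the colon in SMCs, at 32.4 against 124 CPM, -1.93 (-2.58 to -1.35), in SEMFs, -1.25 (-1.51 to -0.98), in trophocytes, -0.91 (-1.04 to -0.78), and in CD81- FBs, -0.40 (-0.45 to -0.35). CD81- FB markers differed the same way in SMCs, with a sum of 1428 CPM (colon) against 9620 CPM (small intestine), and their part in the SMC difference was not tested. The sum of 6 pericyte markers was also lower in the colon in each of these types. It was 154 against 1241 CPM in SEMFs and 76.6 against 153 CPM in trophocytes. In CD81- FBs it was 64.2 against 826 CPM, and in SMCs 619 against 1279 CPM. Single genes held much of the small intestinal sums. Rgs5 held 778 CPM in CD81- FBs, 127 CPM in trophocytes and 1188 CPM in SMCs. In SEMFs Abcc9 held 585 CPM and Rgs5 157 CPM. Colon Pericytes, 8 cells, held 490.3 CPM of Nrp1, and the part of pericyte RNA in the Nrp1 differences was not tested. In LECs Nrp1 was 28.2 CPM in the colon, from 30 UMIs, and 6.33 CPM in the small intestine, from 71, a ratio of 2.15 (1.49 to 2.79). Fibroblast markers summed to 1723 CPM in colon and 769 CPM in small intestinal LECs, which is 10.2% and 2.55% of their level in fibroblasts. At those ratios fibroblast RNA would bring 19.6 and 6.21 CPM of Nrp1. With the 6% of cells of highest doublet score left out, 1 Nrp1 UMI was left in colon LECs and the ratio was -1.59 (-6.93 to 0.98).

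The lymphatic receptors were also lower in colon LECs, by less than 2-fold. Flt4 gave -0.65 (-0.76 to -0.54) and Kdr -0.39 (-0.50 to -0.27), against a median of -0.20 over all genes in LECs. With the larger difference in Nrp2, the 3 receptors that VEGF-C binds on lymphatic cells all had a lower point value in the colon. In the same cells 6 of 9 dissociation-response genes were lower in the colon and none higher, beside 11.7% and 5.69% of all genes. Whether these genes and the receptors move together was not tested.

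In BECs the receptors of VEGF-A stood higher in the colon. Flt1 gave 0.72 (0.60 to 0.84), Kdr 1.06 (0.85 to 1.26) and Nrp1 0.58 (0.34 to 0.81). Fibroblast markers summed to 3994 CPM in colon BECs and 383 CPM in small intestinal BECs, and at that ratio to fibroblasts would bring 45.5 and 3.10 CPM of Nrp1, against the 664 and 443 CPM measured. The colon BECs were 53 cells, of which the authors labelled 45 capillary (CapECs), 4 arterial (ArtECs) and 4 venous (VenECs), whereas the small intestinal BECs carry 1 label. Immune markers summed to 515 CPM in colon and 49.3 CPM in small intestinal BECs. Of 9 dissociation-response genes 1 was higher and 4 were lower in the colon, beside 5.25% and 10.6% of all genes. The part of either set in the receptor differences was not tested. The venous markers Ackr1, Selp and Nr2f2 summed to 241 CPM in colon and 3469 CPM in small intestinal BECs.

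The vessel mix was therefore read from marker genes, counting a cell as capillary with UMIs of at least 2 of Rgcc, Car4 and Cd36, a minimum chosen after the data were seen. By that count 30 of 53 colon BECs (56.6%) and 130 of 524 small intestinal BECs (24.8%) were capillary, and 3 colon and 192 small intestinal cells (36.6%) had at least 2 venous markers. Capillary cells held 3121 CPM (2847 to 3415) of Flt1 in the colon against 3031 CPM (2875 to 3193) in the small intestine, a ratio of 0.04 (-0.11 to 0.19). Kdr was 1357 and 1035 CPM, 0.39 (0.15 to 0.63), and Nrp1 866 and 1029 CPM, -0.25 (-0.54 to 0.03). The tissue differences in these 3 genes were thus smaller among cells counted as capillary by markers. That of Nrp1 pointed the other way with an interval that included 0. The 45 colon CapECs of the authors held 2751 CPM of Flt1, 1070 CPM of Kdr and 735 CPM of Nrp1, so the colon values depend on the set. With at least 2 capillary, arterial or venous markers, 8 colon and 27 small intestinal BECs fell in more than 1 set. Another 16 and 99 fell in none.

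**Figure D4:**
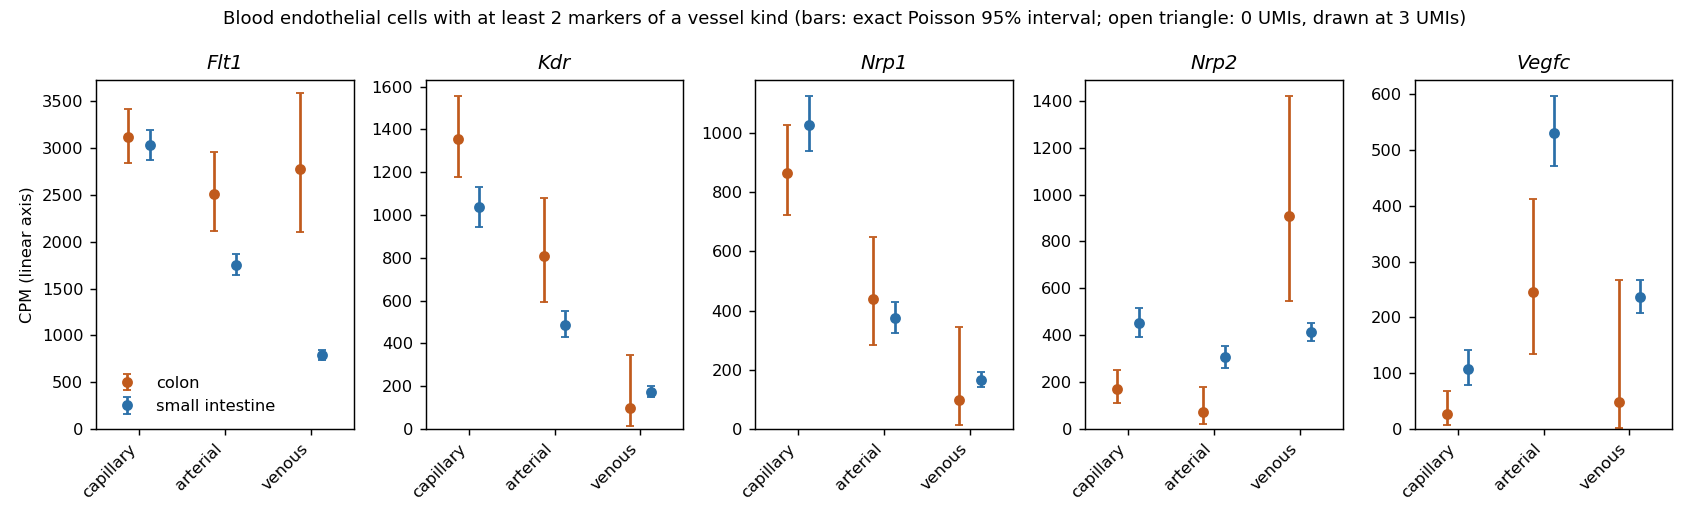
Level of Flt1, Kdr, Nrp1, Nrp2 and Vegfc in BECs with at least 2 capillary, arterial or venous markers, in CPM with exact Poisson 95% intervals, for colon and small intestine. In the small intestine Flt1, Kdr and Nrp1 are highest in cells with capillary markers (3031, 1035 and 1029 CPM) and Vegfc in cells with arterial markers (532 CPM).

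Within the small intestine the 3 marker sets divided the VEGF genes. Cells with venous markers had 785 CPM (733 to 841) of Flt1, 173 CPM (149 to 200) of Kdr and 165 CPM (142 to 192) of Nrp1, all below the capillary values. Vegfc ran the other way, from 107 CPM (79.4 to 141) in capillary cells to 236 CPM (208 to 267) in venous and 532 CPM (472 to 597) in arterial cells. Arterial cells also had the highest Vegfa level of the 3 sets, 75.4 CPM (54.1 to 102), against 15.0 CPM in capillary and 8.46 CPM in venous cells. In the colon the Vegfc of 12 cells with arterial markers was 246 CPM, 14 of the 17 BEC UMIs, and that of capillary cells 26.2 CPM. The Vegfc difference between tissues was -2.03 (-3.96 to -0.58) among capillary cells, against -2.20 in all BECs. It rested on 4 colon UMIs in 2 cells, 3 of them in 1 cell, too few to compare the 2 values. Among cells with arterial markers Vegfc was 246 CPM (134 to 413) in the colon and 532 CPM (472 to 597) in the small intestine. The part of the vessel mix in the Vegfc difference was not tested.

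Flt4 in BECs was lower in the colon by -2.39 (-4.03 to -1.14). Among BECs with UMIs of at most 1 lymphatic marker, a set also chosen after the data were seen, it was -0.82 (-2.49 to 0.48), and with the 6% of highest doublet score left out -0.52 (-2.19 to 0.78). In the same set Flt1 was 0.59, Kdr 1.19, Vegfc -2.27 and Nrp2 -0.61.

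Flt1 had a low but distinct level in 1 fibroblast type of 1 tissue. Colon trophocytes, the CD81+ fibroblasts known to lie below the crypts, held 11.8 CPM (9.27 to 14.8), with a UMI in 51 of 875 cells (5.83%, 4.37 to 7.59). Small intestinal trophocytes held 0.333 CPM, 5 UMIs in 4 of 1913 cells, and colon CD81- FBs 1.66 CPM. The ratio of colon to small intestinal trophocytes was 5.15 (3.86 to 6.81), and it stayed between 4.98 and 5.82 when subsets of cells were left out. Of the 51 cells, 35 had 1 UMI of Flt1, 8 had 2 and 8 had 3, so no single cell made the level. They held the fibroblast matrix gene Dcn in 51 of 51 cells and Cd81 in 48. Blood endothelial genes were found in few of the 51 cells but at a higher level than in the other 824. Cdh5, in 2 cells, had 5.33 CPM against 0.334, Emcn and Esam, in 2 cells each, 5.33 against 0.668, Plvap, in 3 cells, 26.7 against 2.17, and Vwf, in 1 cell, 7.997 against 0.167. Kdr, in 2 cells, had 5.33 CPM against 1.34, Flt4, in 2 cells, 10.7 against 1.00, and Pecam1, in 6 cells, 29.3 against 23.9. Cd34 and Ly6c1 ran the other way, at 363 against 507 CPM and 144 against 280.0. The pericyte gene Rgs5 had 179 CPM in these cells and 29.0 CPM in the others, from 5 and 46 cells. The part of endothelial or pericyte RNA in the Flt1 level was not tested. The level was 10.5 CPM in Y-only trophocytes and 10.3 CPM in those with Xist alone.

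Colon SEMFs had 4.30 CPM of Flt1 against 1.07 CPM in the small intestine, a ratio of 2.00 (0.80 to 3.43). This value rested on 32 UMIs in 8 cells, 12 of them in 1 cell. It was 0.57 (-0.89 to 2.15) without the 6% of cells with the most UMIs and -1.30 (-6.80 to 1.66) with only Y-only colon cells, where 1 UMI remained.

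Types were also compared within each library. BECs over LECs gave 3 higher (Vegfc, Flt1, Nrp1) and 2 lower (Flt4, Nrp2) of 7 in both tissues, where 10.1% and 9.96% of colon genes and 10.4% and 13.5% of small intestinal genes did so. Flt1 gave 9.44 (8.07 to 11.3) and 8.23 (7.86 to 8.63), Vegfc 2.75 (1.54 to 4.04) and 5.86 (5.46 to 6.28), and Nrp1 4.56 (4.0 to 5.17) and 6.13 (5.78 to 6.50). Flt4 gave -5.14 (-6.77 to -3.91) and -3.40 (-3.60 to -3.20), and Nrp2 -1.42 (-1.86 to -1.01) and -1.99 (-2.09 to -1.88). The endothelial split of the system was thus the same in direction for these 5 genes, and for Kdr it was opposite. Among BECs with capillary markers, counted as described above, Kdr was 1357 CPM in the colon and 1035 CPM (945 to 1132) in the small intestine, both above the LEC levels of 624 and 815 CPM, so the opposite order was not seen in those cells. Of 9 dissociation-response genes, 7 were higher in BECs than in LECs of the colon and 6 in the small intestine. Both comparisons are of types the authors may have named with some of these genes, which their files do not state.

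SEMFs over CD81- FBs gave 2 higher (Vegfa, Flt1) and 2 lower (Vegfc, Nrp1) of 5 tested in the colon, beside 7.44% and 9.13% of all genes, and 1 higher (Nrp2) and 1 lower (Nrp1) of 7 in the small intestine, beside 8.99% and 9.8%. Vegfa gave 1.75 (1.61 to 1.90) in the colon and 0.86 (0.67 to 1.04) in the small intestine. Nrp1 gave -3.50 (-3.72 to -3.28) and -2.65 (-2.80 to -2.50), and Nrp2 0.60 (0.53 to 0.66) and 1.38 (1.29 to 1.47). The SEMFs were therefore the fibroblasts with more Vegfa and Nrp2 and less Nrp1 in both tissues. Trophocytes over CD81- FBs gave 2 higher (Flt1, Flt4) and 2 lower (Nrp1, Nrp2) of 6 tested in the colon, beside 6.36% and 10.2%, and 0 higher and 1 lower (Flt1) of 7 in the small intestine, beside 5.39% and 10%. In the small intestine all 9 dissociation-response genes were lower in SEMFs and higher in trophocytes than in CD81- FBs, and in the colon 0 of 9 and 6 of 9 were higher, a pattern whose part in the VEGF values was not tested.

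The genes with the most alike profile were found by Pearson correlation of log2(CPM + 10) over the 12 profiles of 6 types in 2 libraries, among 5977 genes. These values describe profiles that share libraries and depth. Nearest to Flt1 were Mcf2l (0.997), Lcp1 (0.995) and Ssu2 (0.994), and nearest to Kdr were Emcn (0.997), the endothelial sialomucin, Gimap4 (0.995) and Stap2 (0.994). Flt4 was nearest to Adgrg3 (0.999), Gpr182 (0.995) and Prox1 (0.991), the transcription factor of lymphatic identity. The ligands and neuropilins had looser neighbours: Pnmal2 (0.861) for Vegfa, Atp8b1 (0.899) for Vegfc, Col15a1 (0.929), a basement membrane collagen, for Nrp1 and Marcksl1 (0.945) for Nrp2.

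Other genes of the pathway were read from a list by role. Vegfd, the other lymphatic ligand, was a trophocyte transcript at 72.2 CPM (colon) and 77.7 CPM (small intestine), and in SEMFs it was 23.3 and 6.29 CPM, a ratio of 1.89 (1.39 to 2.42). Pgf, a ligand of VEGFR1, was 30.04 and 46.8 CPM in LECs. Of the 3 other ligands Vegfb, Vegfd and Pgf, 1 was higher (Vegfd) and 1 lower (Pgf) in colon SEMFs, beside 7.86% and 16.1% of all genes. In SMCs 0 of 2 tested were higher and 1 was lower (Pgf, with 0 colon UMIs), beside 4.52% and 16.4%. None of the 3 was past 2-fold in CD81- FBs, trophocytes and LECs. Ccbe1, which brings VEGF-C to its protease, was 2.82 CPM in colon and 28.5 CPM in small intestinal SEMFs (-3.34) and 14.2 and 69.1 CPM in SMCs (-2.28). Adamts3, that protease, was 13.5 CPM in colon and 4.72 CPM in small intestinal trophocytes (1.52). In SEMFs both Vegfc and Ccbe1 were therefore lower in the colon. The part of CD81- FB RNA in the SMC values of Ccbe1 was not tested.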

How the data were processed

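Per the submitters' processing notes, Cell Ranger 7.1.0 and Seurat 4 were used with build mm10; filters on cells and genes and the method of naming cells are not stated in the sources used here. The authors deposited raw UMI counts per gene and cell, a table on a natural log scale and a label per cell. The deposited natural log values equalled the natural log of 1 plus the count times 10000 divided by the cell's total, within 6e-15. Counts were summed per library and label, with CapECs, ArtECs and VenECs of the colon joined as BECs, and given as CPM. Labels that held 50 cells or more in both libraries were compared. With 1 library per tissue no test across samples was possible; intervals cover counting error, and a count of 0 was replaced by 3 counts.

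The 7 genes, lists and markers were chosen with earlier results of these data known. Named are the 7 genes, the 3 most alike of each (the nearest for 4 of them) and listed pathway genes. Doublets were kept: Scrublet in scanpy 1.11.5 marked 1 of 6018 colon cells, too few to have worked, and 85 of 9359 small intestinal cells. An alternative left out the 6% with the highest score. Other alternatives changed the totals, the weighting of cells, the scale, the cells used and the filters. The ratio intervals were tested on simulated Poisson counts, the model they assume, which cannot show how they cover spread between cells or libraries. Versions were Python 3.11.15, numpy 2.4.6, pandas 2.3.3, scipy 1.17.1 and matplotlib 3.10.9. Promoters are from RefSeq, build GRCm38.p6.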

Additional observations from a re-analysis of the deposited data

Results flagged for a closer look

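Several VEGF genes differed from one cell type to another in opposite directions in the tissues or types; none of these differences between differences was tested, since each tissue had 1 library. Vegfc in trophocytes over CD81- FBs was -0.52 (log2) in the colon and 0.18 in the small intestine. Flt1 in the same comparison was 2.83 and -1.78, and Flt4, from 10 and 13 trophocyte UMIs, was 1.47 and -0.96. Kdr in BECs over LECs was 0.56 in the colon and -0.89 in the small intestine. For colon over small intestine, Kdr was 1.06 in BECs and -2.17 in CD81- FBs, where its level was under 2 CPM in both tissues. Nrp1 was 2.15 in LECs and -1.93 in SMCs, and Nrp2 was 1.16 in CD81- FBs and -1.51 in LECs.

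Labels with under 50 cells were left out of the comparisons and still held VEGF transcripts. The 24 Proliferating cells of the small intestine had 50.1 CPM of Vegfa, 182 CPM of Kdr, 332 CPM of Flt4, 77.4 CPM of Nrp1 and 665 CPM of Nrp2, the last found in 24 of 24 cells. The 8 colon Pericytes had 490.3 CPM of Nrp1, and the 4 Proliferating colon cells had 391 CPM of Nrp2.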

How the results depend on the processing

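Of 46 log2 ratios of colon to small intestine recomputed, 33 had an interval on 1 side of 0, and 30 of these kept their direction under every alternative run; 3 of their 282 alternative values reversed. These were Flt1 in SEMFs (-1.30, with the colon held to Y-only cells), Nrp1 in LECs (-1.59, without the 6% highest doublet scores) and Nrp1 in BECs (-0.25, capillary cells only). The first 2 rested on 1 colon UMI, and the cause of the third was not tested. A kept direction did not mean a kept size. Of all 46 ratios, 26 left their main interval on the log scale and 18 relative to the median gene. With the colon held to Y-only cells 21 of 43 left it, besides 1 that reversed. Taken relative to the median gene, Vegfa in SEMFs was 1.15, Vegfc in SMCs 0.20, Flt1 in BECs 0.90, Kdr in LECs -0.18, Flt4 in LECs -0.45 and Nrp2 in LECs -1.30. As differences of mean natural log values, converted to log2 units, Vegfa in SEMFs was 0.23, Vegfc in BECs -0.86 and Nrp2 in LECs -1.32. These values add 1 to each cell's scaled count before the log, so their size is not that of a CPM ratio. Without the 6% of cells with the most UMIs, Flt1 in BECs was 0.89 and Kdr in BECs 1.35. Without the 6% highest doublet scores, Kdr in LECs was -0.27 and Flt4 in LECs -0.52. With the colon held to Y-only cells, Flt1 in BECs was 0.86, Nrp1 in BECs 0.96, Kdr in LECs -0.50, Flt4 in LECs -0.78 and Nrp2 in LECs -1.75. Flt1 in BECs was 0.042 and Kdr in BECs 0.39 among capillary cells, and Flt1 was 0.59 with at most 1 lymphatic marker. The leading type was the same in both tissues for 5 genes, and for 4 by the share of cells at 2000 UMIs. Counts over all genes were 0.271 to 0.951 times those given with a minimum of 100 UMIs, 1.27 to 2.25 times with a fold of 1.5, and 1 to 1.90 times with no minimum. For 3 values (Flt1 and Kdr in SMCs, Flt4 in SEMFs) too few UMIs were left to recompute. No paired analysis was possible because each tissue had 1 library. The 53 colon BECs and the single library per tissue set the precision.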

Other observations

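Further genes of the pathway list, not described above, differed by type and tissue. Sema3a, a class 3 semaphorin that binds Nrp1, was 329 CPM in colon and 7.48 CPM in small intestinal SMCs, a log2 ratio of 5.46 (4.81 to 6.17), and in LECs it was 144 and 389.6 CPM (-1.44). CD81- FB markers summed to 1428 CPM in colon and 9620 CPM in small intestinal SMCs. The part of this mixing in the SMC ratio of Sema3a was not tested. Of the 7 class 3 semaphorins, 5 were tested in SMCs and 4 in LECs, and in both types 1 was higher and 1 lower in the colon. Over all genes 4.52% were higher and 16.4% lower in SMCs, and 5.69% and 11.7% in LECs. Sema3c was a trophocyte transcript at 271 and 309 CPM, and Sema3g was found in BECs at 100.1 and 94.4 CPM.

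In the angiopoietin system, which acts beside VEGF on vessel stability, Angpt1 was 148 and 138 CPM in SEMFs and 33.5 and 106 CPM in trophocytes (-1.67). Its receptor Tek was 197 CPM in colon and 431 CPM in small intestinal BECs (-1.13), and was also present in trophocytes, at 149.5 and 88.6 CPM. Among 9 endothelial response genes tested in BECs, 2 were higher in the colon (Esm1, Cxcr4) and 1 lower (Nr2f2), beside 5.25% and 10.6% of all genes, and the list's median log2 ratio was -0.33 against -0.18 for all genes. Esm1, a gene that VEGF-A is known to induce in endothelial cells, was 352 CPM in colon BECs against 109 CPM in those of the small intestine, 1.69 (1.33 to 2.03). Cdh5 (-0.74, -1.03 to -0.45), Sox18 (-0.94, -1.31 to -0.60) and Plvap (-0.33, -0.46 to -0.21) had a lower level in the colon, short of 2-fold. Nr2f2, the venous transcription factor, was 70.5 and 380 CPM (-2.43). It is itself among the venous markers counted above, so it is no separate evidence on the share of venous cells. Small intestinal LECs held 1006 CPM of Nr2f2, and the part of lymphatic RNA in the BEC values was not tested.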
